A study of Homo sapiens with 6 samples.

Results

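Calcium channels, pumps and binding proteins move calcium ions across cell membranes and hold them inside the cell. In the classical route across an epithelium, calcium enters through the channels TRPV5 and TRPV6, is carried by the calbindins encoded by CALB1 and S100G, and leaves through the plasma membrane pumps encoded by ATP2B1 and ATP2B4 and the sodium/calcium exchanger encoded by SLC8A1. The receptor CASR senses calcium outside the cell, and STIM1 and ORAI1 refill the internal stores. In intestine and kidney, vitamin D acts through its nuclear receptor to raise several genes of this route, TRPV6, S100G and CALB1 among them, together with CYP24A1, which encodes the enzyme that inactivates the hormone.

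The 10 genes named above other than CYP24A1 were read from 6 single-color Agilent arrays of SKOV3 cells, an established human ovarian cancer line. SKOV3 is the name in the study's text, while the sample titles read SKOV-1. The 3 arrays labelled 1α,25(OH)2D3 stand for cells kept for 72 h in 100 nmol/L of the hormonally active form of vitamin D, and the 3 labelled vehicle for cells kept as long in ethanol alone. Both were grown in RPMI medium with fetal bovine serum, and the labels name no genetic change in either. The labels do not say whether replicates came from separate cultures, so p-values measure the spread between these arrays, which may be technical. The arrays are called D3-labelled arrays 1, 2 and 3 and vehicle-labelled arrays 1, 2 and 3.

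The scanner files name no gene for these probes. A probe was therefore given to a gene where its whole sequence matched a sense transcript of GENCODE release 44 exactly, which gave 20 of 125584 probes, for 8 of the 10 genes. STIM1 and ATP2B4 had 4 probes each, ATP2B1 and SLC8A1 3 each, TRPV6 and CALB1 2 each, and S100G and CASR 1 each. No probe was matched to TRPV5 or ORAI1, which are not analysed here. A probe within the ORAI1 span, A_23_P156809, matched transcripts of other annotated genes and none of ORAI1, and was left out. Among the 20 matched probes, 14 were well above background on all 6 arrays, and 15, from 5 genes, entered the test because they passed that mark on every array of either label. A member that entered through the label where it is bright is more likely to differ, so the 15 do not stand for all 20.

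Each array held 175812 spots that are not controls, none of them saturated, and the share of probes well above background was 49.1% to 57.6%. Rank correlations between arrays lay between 0.934 and 0.959. D3-labelled arrays 1 and 2 share a slide, and D3-labelled array 3 shares the other slide with the vehicle-labelled arrays. All 8 of the 8 carcinoma marker genes with a probe, among them KRT8, EPCAM, ERBB2 and PAX8, had a probe well above background on all 6 arrays. WT1 and MSLN had no matched probe. The enterocyte markers VIL1, FABP2 and SI were not well above background on any array, and neither was the kidney tubule marker SLC12A1.

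Probes for ATP2B1, ATP2B4 and SLC8A1 are printed because they carry the comparisons between labels, and because probes of 1 gene read different exons. All were placed on hg38 by their own sequence. ATP2B1 lies on the minus strand of chr12:89588049-89709366. Its probe A_33_P3267186, at chr12:89599168-89599227, lies in coding exon 20 of the 21 exons of the principal transcript. Its probe A_33_P3267185, at chr12:89598591-89598650, lies in intron 20 of that transcript and in a coding exon of other protein-coding ATP2B1 transcripts. The probe A_23_P11841 of ATP2B4, at chr1:203721336-203721395 on the plus strand, lies in coding exon 17 of 21. Capitals mark its 11 bases that differ from the closest stretch of ATP2B1, the other 49 of 60 bases being identical. The probe A_24_P136866 of SLC8A1, at chr2:40430190-40430249 on the minus strand, lies in coding exon 2 of 11.
ATP2B1 A_33_P3267186: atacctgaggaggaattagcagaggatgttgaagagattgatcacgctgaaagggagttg
ATP2B1 A_33_P3267185: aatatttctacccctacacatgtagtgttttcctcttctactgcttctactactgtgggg
ATP2B4 A_23_P11841: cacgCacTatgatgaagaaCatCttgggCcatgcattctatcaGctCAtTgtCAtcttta
SLC8A1 A_24_P136866: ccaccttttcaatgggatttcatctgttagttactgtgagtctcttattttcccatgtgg

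CYP24A1 was read first, since it marks the response to the hormone. Values are those of the deposited table, on a log2 scale in which every array has the same distribution, so a value can be compared between arrays for 1 probe and not between probes. The CYP24A1 probe A_23_P28815 had 2.23, 13.84 and 3.30 on D3-labelled arrays 1, 2 and 3, and 14.18, 4.75 and 14.34 on vehicle-labelled arrays 1, 2 and 3. It was well above background on D3-labelled array 2 and vehicle-labelled arrays 1 and 3, and not on the other 3 arrays. The probes A_33_P3369401 and OEV5_63001, in exon 10 and intron 7 of the gene, had their 3 highest values on the same arrays. A_33_P3369401 was also well above background on vehicle-labelled array 2, at 8.24, against 3.88 and 4.46 on D3-labelled arrays 1 and 3, where it was not. CYP24A1 therefore goes against the labels, and every direction given here is a direction between labels. Whether the labels are those of the treatments the cells received was not tested, and each difference between labels depends on it. Arrays are set beside CYP24A1 one by one and were not averaged or tested by it, because that order is itself a measured outcome.

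Between the labels, no calcium gene passed the test. Of the 15 probes tested in limma, 5 had a positive and 10 a negative log2 difference (1α,25(OH)2D3 minus vehicle), with a median of -0.137 and a range of -0.58 to 0.44. Over all 63372 probes tested the median was -0.004. After Benjamini-Hochberg adjustment over all probes tested in limma, 0 of the 15 passed an adjusted p of 0.05, as did 0 of all probes (0%), and the smallest adjusted p was 0.701. With a change of more than 2-fold and p under 0.05 before adjustment, 0 of the 15 passed, against 0.745% of all probes. At an unadjusted p under 0.05 alone, 2 of the 15 passed, 1 higher and 1 lower, against 6.77% of all probes. In bulk RNA, fewer cells that express a gene and less of its RNA per cell cannot be told apart.

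**Figure D1:**
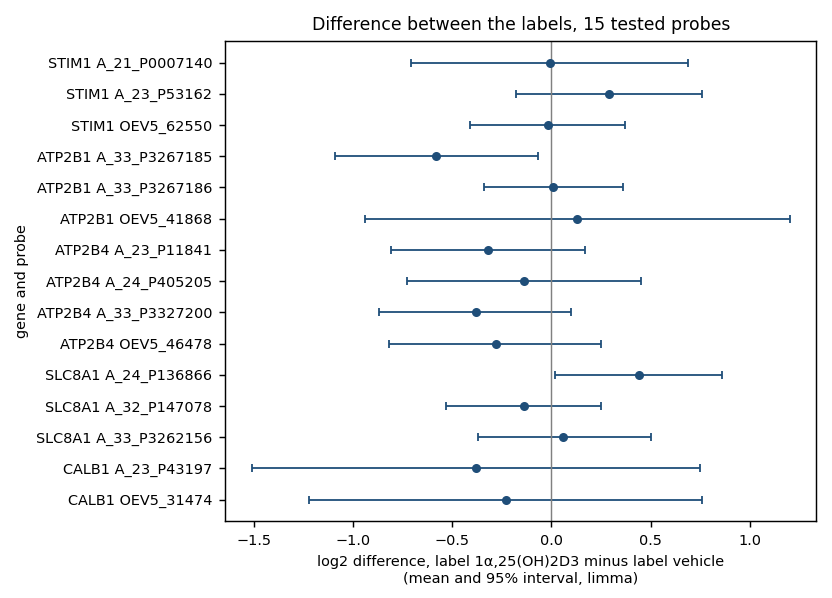
Log2 difference between the labels (1α,25(OH)2D3 minus vehicle, x axis) for the 15 tested probes, named on the y axis, with the 95% interval from limma. The intervals of ATP2B1 A_33_P3267185 (-1.09 to -0.07) and SLC8A1 A_24_P136866 (0.02 to 0.86) leave out 0, and the other 13 include it.

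TRPV6, the entry channel, was well above background on the same 3 arrays as the CYP24A1 probe A_23_P28815 and on no others. Its gene lies on the minus strand of chr7:142871208-142885745, and both probes lie in the 3′ UTR of the last of its 15 exons, apart from each other. Probe A_33_P3364854 had 3.65, 5.45 and 3.11 on D3-labelled arrays 1, 2 and 3, and 7.01, 3.66 and 6.11 on vehicle-labelled arrays 1, 2 and 3. Probe A_23_P71170 had 3.84, 5.57 and 3.64 with the first label, and 6.6, 3.47 and 5.76 with the second. Each probe was well above background on D3-labelled array 2 and vehicle-labelled arrays 1 and 3 only, in the order vehicle 1, vehicle 3, D3 2 for both. The labels overlapped for both probes.

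Since neither TRPV6 probe was measured on all 3 arrays of a label, the filter left both out of the test. Their log2 differences between the labels were -1.53 for A_33_P3364854 and -0.92 for A_23_P71170, and 3 of the 6 values behind each are from arrays where the probe was not well above background. Without the filter, limma gave Benjamini-Hochberg adjusted p-values of 0.807 and 0.837. Without vehicle-labelled array 2, one of the low arrays, the differences were larger, at -2.49 and -1.83. Both probes then passed the filter through the remaining vehicle-labelled arrays, where they are high, so no test is read from that setting.

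**Figure D2:**
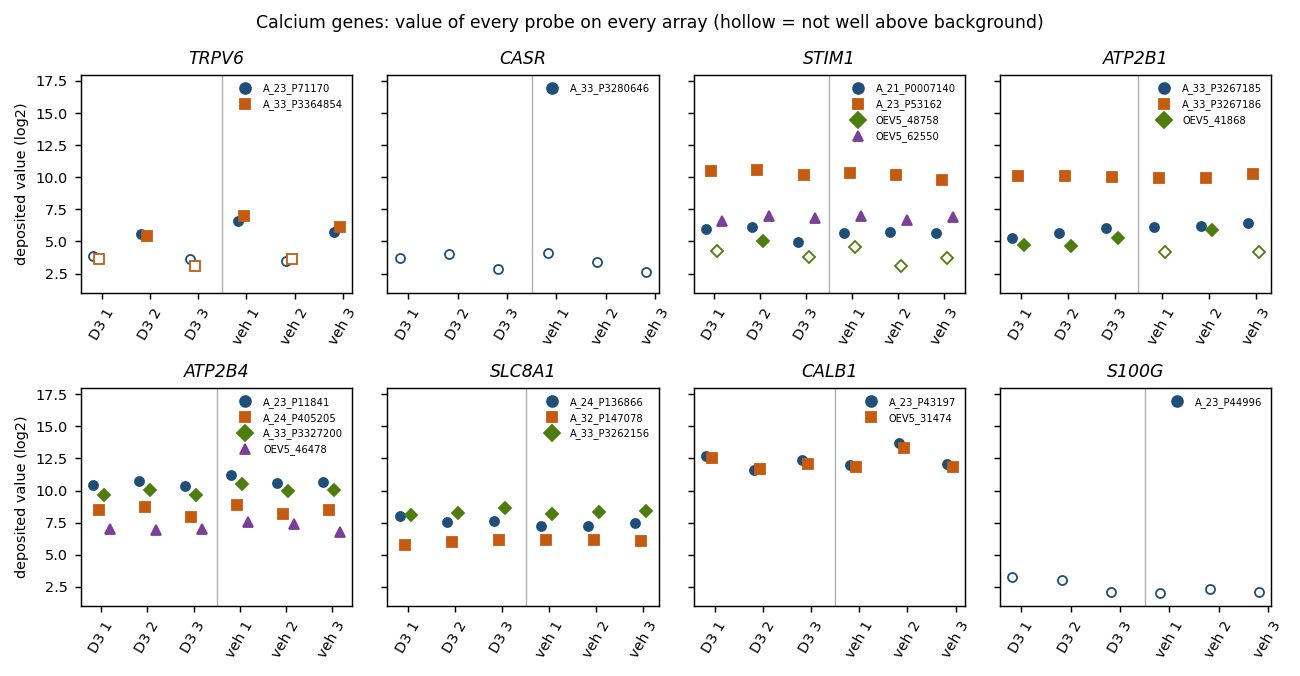
Deposited log2 value (y axis) of all 20 probes on each of the 6 arrays (x axis: D3 1 to 3 and veh 1 to 3 are the arrays labelled 1α,25(OH)2D3 and vehicle), 1 panel per gene, with hollow points where the probe was not well above background. TRPV6 has filled points on D3 2, veh 1 and veh 3 only, between 5.45 and 7.01, while S100G and CASR have none.

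STIM1, the store sensor that opens the ORAI channels, showed no difference between labels that passed the test. Its gene lies on the plus strand of chr11:3854527-4093210. Probe A_23_P53162, in the 3′ UTR of the last of its 13 exons, had 10.47, 10.55 and 10.14 on D3-labelled arrays 1, 2 and 3, and 10.33, 10.19 and 9.78 on vehicle-labelled arrays 1, 2 and 3. The labels overlapped, and the log2 difference of 0.29 (standard error 0.20, 95% interval -0.18 to 0.76) had an adjusted p of 0.723 by limma and the Benjamini-Hochberg method. Within the slide that holds both labels, where the single D3-labelled array is assumed to vary like the vehicle-labelled ones, it was 0.04.

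The other 3 STIM1 probes do not match the principal transcript. OEV5_62550 and A_21_P0007140 overlap each other at the start of the gene, in the 5′ UTR of a longer transcript, and also match a lncRNA annotated there, so their source is uncertain. OEV5_62550 lay between 6.63 and 6.99 on all 6 arrays, and A_21_P0007140 between 4.94 and 6.11. Their log2 differences were -0.02 and -0.01, with adjusted p-values of 0.980 and 0.993 by limma and the Benjamini-Hochberg method. For A_21_P0007140, lowest on D3-labelled array 3, the difference moved to -0.74 within the slide that holds both labels, with an adjusted p = 0.993 in limma, and that of OEV5_62550 turned to 0.01. OEV5_48758, in intron 12, was well above background on D3-labelled array 2 alone, at 5.06, and was not tested.

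CASR and S100G were not well above background on any of the 6 arrays. The probe for CASR, the calcium-sensing receptor, lies in the 3′ UTR of the last of 7 exons on chr3 and had values between 2.61 and 4.10. The probe for S100G, the smaller calbindin, spans the end of the coding part of exon 3 of 3 on chromosome X and had 3.30, 3.04 and 2.06 on D3-labelled arrays 1, 2 and 3, and 2.04, 2.30 and 2.07 on vehicle-labelled arrays 1, 2 and 3. The S100G values on the first slide, 3.30 and 3.04, were not well above background either. The lowest value in the table is 2.0, and values below background have no order that can be read.

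CALB1, the larger calbindin, was well above background on all 6 arrays and spread widely within the labels. Its gene lies on the minus strand of chromosome 8, and its probes lie in the 3′ UTR of the last of 11 exons and across the end of exon 9 into an intron. Probe A_23_P43197 had 12.66, 11.63 and 12.35 on D3-labelled arrays 1, 2 and 3, and 11.97, 13.72 and 12.09 on vehicle-labelled arrays 1, 2 and 3. Probe OEV5_31474 had 12.53, 11.71 and 12.09 with the first label, and 11.82, 13.34 and 11.86 with the second. Both probes put vehicle-labelled array 2 highest and D3-labelled array 2 lowest, 4.25-fold and 3.09-fold apart, and the labels overlapped for both.

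The label means of CALB1 A_23_P43197 were 12.21 ± 0.53 (SD, n = 3) for 1α,25(OH)2D3 and 12.59 ± 0.98 (SD, n = 3) for vehicle. The log2 difference of -0.38 (standard error 0.49, 95% interval -1.51 to 0.75) had an adjusted p of 0.834 by limma and the Benjamini-Hochberg method, and that of OEV5_31474 was -0.23. Within the slide that holds both labels they were -0.25 and -0.24. Without vehicle-labelled array 2 the differences turned to 0.18 and 0.27. For CALB1, spread within the labels was larger than the difference between them.

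ATP2B1, which encodes the widely expressed calcium pump PMCA1, was read by probes in different exons. Probe A_33_P3267186, in exon 20 of the principal transcript, had 10.10, 10.07 and 10.01 on D3-labelled arrays 1, 2 and 3, and 9.96, 9.96 and 10.22 on vehicle-labelled arrays 1, 2 and 3. Its labels overlapped and its 6 values lay within 0.26 on the log2 scale, with a difference of 0.01 (standard error 0.15, 95% interval -0.34 to 0.36). Its adjusted p was 0.985 by limma and the Benjamini-Hochberg method.

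Probe A_33_P3267185, in the alternative coding exon of ATP2B1, had 5.30, 5.67 and 6.05 on D3-labelled arrays 1, 2 and 3, and 6.15, 6.18 and 6.43 on vehicle-labelled arrays 1, 2 and 3. Every D3-labelled value was below every vehicle-labelled value, an order found in that direction for 5.18% of all probes tested and for 1 of the 15 tested here. The log2 difference was -0.58 (standard error 0.22, unadjusted p = 0.03 and adjusted p = 0.701 by limma and the Benjamini-Hochberg method). The lowest values were those of the first slide. Within the slide that holds both labels the difference was -0.20, with an adjusted p = 0.993 in limma, and without D3-labelled array 1 it was -0.39.

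The distance between these ATP2B1 probes was set beside the labels after their values had been seen. A_33_P3267185 minus A_33_P3267186 was -4.39 ± 0.42 (SD, n = 3) on the log2 scale for the label 1α,25(OH)2D3, from -4.80 to -3.96, and -3.80 ± 0.02 (SD, n = 3) for vehicle, from -3.82 to -3.78. The value nearest to vehicle, -3.96, was that of D3-labelled array 3, which shares the slide of the vehicle-labelled arrays. An exact permutation of the labels gave this distance a 2-sided p = 0.1. That is the smallest p possible with 3 arrays per label, so the test cannot decide, and the distance is a description. The remaining ATP2B1 probe, OEV5_41868, in intron 17, was well above background on all 3 D3-labelled arrays and on vehicle-labelled array 2, with its highest value, 5.88, on the last. Its log2 difference of 0.13 had a standard error of 0.46, and was 0.54 within the slide that holds both labels.

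ATP2B4, which encodes the pump PMCA4, had 4 probes well above background on all 6 arrays, each lower on average with the label 1α,25(OH)2D3 and none past the test. Its gene lies on the plus strand of chr1:203626832-203744081. The probe in exon 17, A_23_P11841, had 10.44, 10.74 and 10.32 on D3-labelled arrays 1, 2 and 3, and 11.19, 10.61 and 10.67 on vehicle-labelled arrays 1, 2 and 3. A probe in the 3′ UTR, A_33_P3327200, had 9.66, 10.06 and 9.66 with the first label, and 10.51, 9.95 and 10.07 with the second. Vehicle-labelled array 1 was highest for both, and the labels overlapped for both.

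The log2 difference of ATP2B4 A_33_P3327200 was -0.38 (standard error 0.21, 95% interval -0.87 to 0.10, adjusted p = 0.701 by limma and the Benjamini-Hochberg method), and that of A_23_P11841 was -0.32 (standard error 0.21). Without vehicle-labelled array 1 they were -0.22 and -0.14, and within the slide that holds both labels -0.52 and -0.50. The other 3′ UTR probe, A_24_P405205, had a difference of -0.14, and OEV5_46478, in intron 20, had -0.28, with adjusted p-values of 0.888 and 0.746 in the same limma fit. Within the slide that holds both labels these were -0.57 and -0.29.

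SLC8A1, which encodes the sodium/calcium exchanger NCX1, was read by probes in exon 2 and in its last exon. Its gene lies on the minus strand of chr2:40097270-40611053. Probe A_24_P136866, in exon 2, had 8.01, 7.54 and 7.65 on D3-labelled arrays 1, 2 and 3, and 7.24, 7.20 and 7.44 on vehicle-labelled arrays 1, 2 and 3. Every D3-labelled value was above every vehicle-labelled value, an order found in that direction for 7.03% of all probes tested and for 1 of the 15 tested here. The log2 difference was 0.44, or 1.36-fold (standard error 0.18, unadjusted p = 0.0405 and adjusted p = 0.701 by limma and the Benjamini-Hochberg method). Within the slide that holds both labels it was 0.35, with an adjusted p = 0.993 in limma.

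For the probes in the last of the 11 SLC8A1 exons the labels overlapped. A_33_P3262156 had 8.12, 8.27 and 8.67 on D3-labelled arrays 1, 2 and 3, and 8.18, 8.31 and 8.38 on vehicle-labelled arrays 1, 2 and 3, a log2 difference of 0.06 (95% interval -0.37 to 0.50). Within the slide that holds both labels its difference was 0.38, beside 0.35 for the exon 2 probe. It shares 48 of its 60 bases with SLC8A2, a related exchanger gene. A_32_P147078 lay between 5.73 and 6.17, with a log2 difference of -0.14 (95% interval -0.53 to 0.25) that turned to 0.06 within the slide that holds both labels.

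Beside CYP24A1, the arrays divided into the same 3 and 3 for TRPV6 and for most ATP2B4 probes, with the higher values on the arrays high in CYP24A1, and for CALB1 with the lower values there. Of the 14 probes well above background on all 6 arrays, 4 had their 3 highest values on D3-labelled array 2 and vehicle-labelled arrays 1 and 3, against 3.23% of the 57103 such probes on the arrays. These were ATP2B4 A_23_P11841, A_24_P405205 and A_33_P3327200, and STIM1 OEV5_62550, the last with little distance between the arrays. The 2 CALB1 probes had their 3 lowest values there, against 2.86% of all such probes. The remaining 8, among them every SLC8A1 probe, followed neither division. Probes of 1 gene share their RNA and are not separate observations.

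For ATP2B4, the gaps between the 2 sides were small. A_23_P11841 had 10.67, 10.74 and 11.19 on the 3 arrays high in CYP24A1, and 10.32, 10.44 and 10.61 on the others. A_24_P405205 had 8.48, 8.72 and 8.84 on the former, and 7.94, 8.21 and 8.45 on the latter. For CALB1 A_23_P43197 the highest of the former was 12.09 and the lowest of the latter 12.35. For CALB1 OEV5_31474 these values were 11.86 and 12.09. In these ATP2B4 and CALB1 probes, gaps were narrower than the range of the arrays on either side, except in CALB1 OEV5_31474. The 3 lowest values of that probe, from 11.71 to 11.86, lay closer together than the gap. TRPV6 passed from below to well above background, so its gap has no size that can be read. As the 6 arrays form separate clusters in CYP24A1, no correlation was computed.

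**Figure D3:**
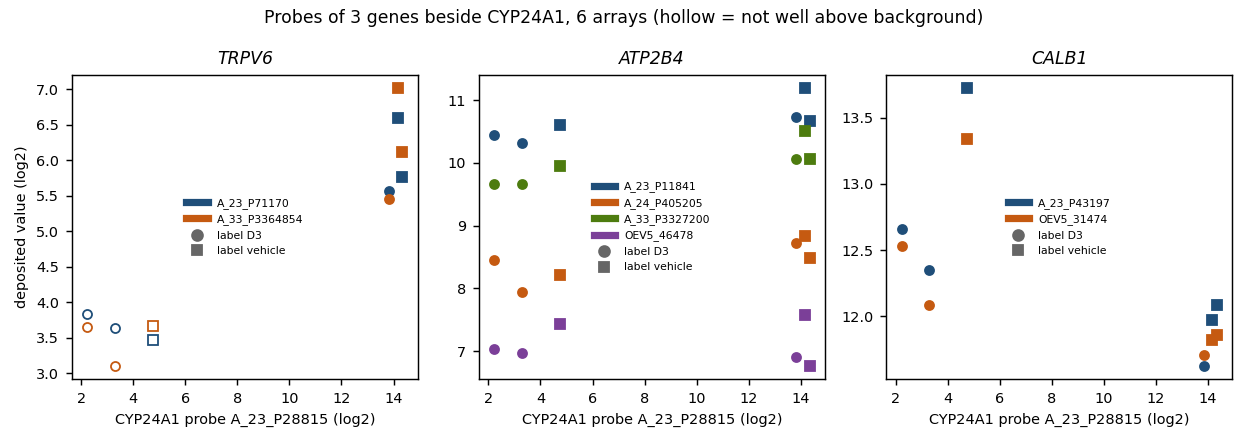
Deposited log2 values of the TRPV6, ATP2B4 and CALB1 probes (y axis, 1 panel per gene) against the CYP24A1 probe A_23_P28815 (x axis, log2), with 1 point per array and probe, round for the label 1α,25(OH)2D3, square for vehicle, and hollow where not well above background. The arrays form 1 cluster between 2.23 and 4.75 and another between 13.84 and 14.34 of CYP24A1, each holding both labels.

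Other genes of calcium handling did not pass the test between the labels either. A list of 76 genes, of entry channels (34 genes), extrusion (8), internal stores (16), binding proteins (15) and hormones (3), had 170 probes, of which 99 were tested. Their log2 differences were positive for 46 and negative for 53, with a median of -0.014. In limma 0 of the 99 passed an adjusted p of 0.05 after Benjamini-Hochberg adjustment, and 12 had an unadjusted p under 0.05, against 6.77% of all probes. Labels did not overlap for 5 probes higher and 13 lower with 1α,25(OH)2D3, against 7.03% and 5.18% of all probes.

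By role, the medians of the log2 differences lay between -0.218 and 0.109. Binding proteins had 7 positive and 18 negative differences with a median of -0.113, and entry channels 27 and 16 with a median of 0.109. Store genes had 8 and 14 with a median of -0.023, and extrusion genes 4 and 3 with a median of 0.059. Both hormone probes were negative, with a median of -0.218. None of these counts was tested as a set.

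**Figure D4:**
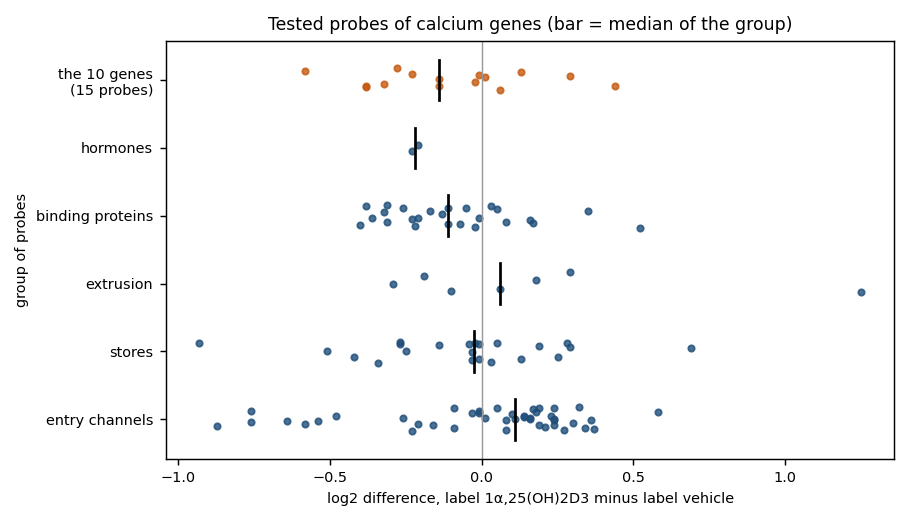
Log2 difference between the labels (1α,25(OH)2D3 minus vehicle, x axis) of the tested probes by role (y axis), with a point per probe and a bar at each median. The top line holds the 15 tested probes, which come from 5 of the 10 genes. Medians lie between -0.218 for the hormones and 0.109 for the entry channels, and 1 extrusion probe, of SLC24A4, stands at 1.25.

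SLC24A4, which encodes a potassium-dependent sodium/calcium exchanger, was the 1 gene of the list with a measured difference over 2-fold and p under 0.05 before adjustment. Its probe A_23_P503010 had 4.35, 4.50 and 4.78 on D3-labelled arrays 1, 2 and 3, and 3.23, 3.33 and 3.33 on vehicle-labelled arrays 1, 2 and 3. It was well above background on the first 3 and on none of the last 3, so the size of the difference is not known. With the lowest value of any probe well above background as the vehicle level on each array, the D3-labelled mean was 1.33-fold higher. This is not a lower bound, since a probe can exceed that value and not be well above background. On vehicle-labelled array 2, where that value was 4.445, TRPV4 A_24_P13381 had 4.70 and was not well above background. The measured means were 4.55 ± 0.22 and 3.30 ± 0.06 (SD, n = 3), with an adjusted p = 0.701 by limma and the Benjamini-Hochberg method. As the probe entered the test only through the label where it is high, and its vehicle values are not above background, neither this p nor the measured log2 difference of 1.25 supports a change. The difference was 1.49 within the slide that holds both labels, and 0.20 after normexp background correction. The other SLC24A4 probe, A_33_P3318148, was well above background on all 6 arrays and had a difference of -0.29.

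Of the 8 genes of the list whose probes had the widest range over the arrays, SLC24A4 and PIEZO1 had labels that did not overlap. Over all probes tested, labels did not overlap for 7.03% with the D3-labelled values higher and 5.18% with them lower. For SLC24A4 the separation rests on vehicle-labelled values that were not well above background, so only that of PIEZO1 is between measured values. PTHLH, which encodes parathyroid hormone-related protein, ranged most, with 8.17, 7.56 and 8.09 on D3-labelled arrays 1, 2 and 3, and 6.50, 8.68 and 9.25 on vehicle-labelled arrays 1, 2 and 3. Its labels overlapped, and the log2 difference was -0.21 (standard error 0.64). The channel TRPC6 was highest on D3-labelled array 1, at 6.99 with OEV5_39179, against 5.19 to 5.56 on the other arrays, and its log2 difference of 0.58 was 0.04 within the slide that holds both labels. The mechanically gated channel PIEZO1 had D3-labelled values of 5.12, 5.67 and 5.13 and vehicle-labelled values of 5.74, 6.24 and 6.56 with OEV5_43109. These PIEZO1 values did not overlap, with a log2 difference of -0.87 (standard error 0.26, unadjusted p = 0.0101 and adjusted p = 0.701 by limma and the Benjamini-Hochberg method). Within the slide that holds both labels this difference was -1.05. A_23_P140738 had a difference of -0.76, while other PIEZO1 probes had differences up to 0.34, with A_19_P00802413.

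RYR2, which encodes a calcium release channel of the stores, had a log2 difference of 0.69 with OEV5_45491 (standard error 0.26, unadjusted p = 0.0309 and adjusted p = 0.701 by limma and the Benjamini-Hochberg method), which was 0.37 within the slide that holds both labels. Its labels overlapped. S100A4, a calcium-binding protein of the S100 family, had 0.52 (standard error 0.31), and its labels overlapped. SLC24A1 and CACNA1D, with ranges of 1.65 and 1.51 on the log2 scale, were each well above background on some arrays only and were not tested.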

How the data were processed

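The authors scanned 6 single-color arrays with Agilent Feature Extraction, version 10.7.1.1 per the submitters' processing notes, and deposited for every spot its intensity, the local background, and other flags such as that for a spot well above background. A further table from the authors gives deposited log2 values, 1 for each probe on each array. Sorted, its columns match to within 0.00091, so it was normalized by quantiles between arrays, every column has a median of 4.781, and no centring of probes was found. The tool used for it is not given in the sources used here. The labels name the mirVana kit for RNA, and the study's methods TRIzol.

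Values were taken from this table and detection from the flags. Probe sequences were matched without mismatch to GENCODE release 44 and hg38. Probes that were well above background on every array of either label were fitted with limma 3.58.1 in R 4.3.3, without a covariate, and p-values adjusted by Benjamini-Hochberg over all 63372 probes. The fit was tested on simulated data. The number of arrays limits precision. The genes, lists and tests were chosen with earlier results of these data known. Named were all 10 genes, CYP24A1 and, of the calcium list, genes that changed over 2-fold with p under 0.05 before adjustment and the 8 with the widest range among probes well above background on at least 3 arrays. Alternatives were scanner signals scaled to the 75th percentile, normexp correction with an offset of 50, other filters, slide or replicate number as a block, the methods' t-test, the brightest probe per gene, the threshold of the methods, and each array left out. RT-PCR and cell experiments are not analysed here.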

Additional observations from a re-analysis of the deposited data

How the results depend on the processing

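With adjusted p-values, 0 calcium probes passed under every alternative run. Over all probes 0 passed except without vehicle-labelled array 1, where it was 4, also at an absolute log2 difference above 2, so leaving out 1 array gave 0 to 4. With a change over 2-fold and p under 0.05 before adjustment, the count over all probes was 472 (308 higher, 164 lower with the label 1α,25(OH)2D3). It became 32 with normexp correction (14 and 18), 1612 without a filter (872 and 740), 157 with the filter on all 6 arrays, 808 with the slide as a block (402 and 406), 796 within the slide that holds both labels (386 and 410), 139 with the methods' t-test, and 513 with scanner signals scaled to the 75th percentile (371 and 142). Leaving out 1 array gave 329, without D3-labelled array 1, to 1526, without D3-labelled array 3. Among the probes of the 10 genes it was 0, and 0 to 2 when 1 array was left out, the 2 being TRPV6, which then entered through the arrays where it is high. For the calcium list it was 1, and 0 with normexp correction, 3 without a filter, 0 with the filter on all 6 arrays, 3 with the slide as a block, 3 within that slide, and 1 to 3 when 1 array was left out. Same-numbered arrays had correlations of 0.123, 0.092 and -0.025 between their deviations from the label means. The same-numbered vehicle-labelled array was the closest one for D3-labelled array 1, and not for 2 and 3. These values cannot decide whether the replicates were paired. A replicate block gave 582 probes over all and 0 of the 10 genes. Signs turned for ATP2B1 A_33_P3267186 (-0.15 with normexp correction, -0.04 with the slide block and within the slide), SLC8A1 A_32_P147078 (0.06 with the slide block and within the slide), SLC8A1 A_33_P3262156 (-0.04 with normexp correction), STIM1 A_21_P0007140 (0.02 with scanner signals) and STIM1 OEV5_62550 (0.01 with the slide block and within the slide). With 1 array left out the log2 difference ran from -0.03 to 0.10 for ATP2B1 A_33_P3267186, -0.16 to 0.70 for ATP2B1 OEV5_41868, -0.31 to 0.08 for ATP2B4 A_24_P405205, -0.69 to 0.18 for CALB1 A_23_P43197, -0.49 to 0.27 for CALB1 OEV5_31474, -0.10 to 0.18 for SLC8A1 A_33_P3262156, -0.23 to 0.35 for STIM1 A_21_P0007140, -0.10 to 0.08 for STIM1 OEV5_62550 and -1.03 to 0.35 for PTHLH A_23_P2271. The cause of these changes was not tested, other than that fewer or more probes enter under another filter. Signal near background limits TRPV6, CASR, S100G and SLC24A4, whose values give no amount where the probe was not well above background. No alternative was added after the fits.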

Other observations

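CATSPER3, a sperm calcium channel gene, was picked out after its values had been seen. The study's own lists already name CATSPER3, TRPV6 and CYP24A1 as correlated with the same lncRNA in these data. Their shared pattern here is therefore not a separate observation. The CATSPER3 probe A_23_P393749 was well above background on the same 3 arrays as TRPV6 and the CYP24A1 probe A_23_P28815 and on no others. It had 3.83, 4.80 and 3.68 on D3-labelled arrays 1, 2 and 3, and 4.97, 3.81 and 4.75 on vehicle-labelled arrays 1, 2 and 3. The other CATSPER3 probe, OEV5_29285, lay between 2.05 and 2.24 and passed the background mark on none of the 6 arrays. Of the calcium list, 93 probes were well above background on all 6 arrays. Among these, 7 had their 3 highest values and 5 their 3 lowest on the arrays high in CYP24A1, against 3.23% and 2.86% of all such probes.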
